A study of Mus musculus with 6 samples.

Results

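The 8 genes described here encode enzymes that carry fatty acids into liver mitochondria, break them down and make ketone bodies: Cpt1a, Cpt2, Acadvl, Acadl, Acadm, Hadha, Hadhb and Bdh1. They were chosen by symbol from a table of 55450 genes, each matched 1 row, and all 8 were abundant enough to be tested. Poly(A) RNA was sequenced from the left liver lobe of 6 mice of strain C57BL/J, aged 10 weeks, with 1 library per mouse. The 3 knockout mice were LKB1 fl/fl animals, in which loxP sites flank part of the gene for the kinase LKB1 (symbol Stk11), and they received AAV8 Cre, an adeno-associated virus of serotype 8 that delivers the Cre recombinase, at 6 weeks of age. The 3 wild-type (WT) mice, per the series design, received the same virus at the same age. Livers were taken 4 weeks later. The labels do not name the promoter that drives Cre or say whether the mice were littermates.

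Fatty acids enter the mitochondrion as carnitine esters. CPT1A on the outer membrane makes the ester and is inhibited by malonyl-CoA, a carrier moves it across the inner membrane, and CPT2 returns it to acyl-CoA. Acyl-CoA dehydrogenases graded by chain length (ACADVL, ACADL, ACADM) then start each round of beta-oxidation, and the trifunctional protein, built from HADHA and HADHB, completes the round for long chains. In liver much of the acetyl-CoA becomes ketone bodies, and BDH1 reduces acetoacetate to beta-hydroxybutyrate. LKB1 activates AMPK, a kinase that inhibits by phosphorylation the acetyl-CoA carboxylases, which make malonyl-CoA. AMPK acts on proteins, and the values here are transcript levels only. Bdh1 is the only one of the 8 genes that acts in ketone body synthesis itself.

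The libraries held between 47659122 and 56147667 counts. Stk11 was at 22.2, 14.4 and 11.4 CPM (TMM-normalised read counts relative to library size) in knockout replicates 1 to 3. In WT it was at 64.2 to 69.7 CPM, so the targeted gene was low where the labels say knockout. Xist had 42472 counts in knockout replicate 1 and 29243 in WT replicate 1, with at most 6 counts over 4 Y-linked genes, whereas the other 4 libraries had at most 16 counts of Xist and 6146 to 8199 Y-linked counts. The knockout and WT groups each hold 1 library of the first kind and 2 of the second, a difference the labels do not describe. Comparisons are therefore also given for replicates 2 and 3 alone (2 against 2) and for replicate 1 (1 against 1, with no replicate check). Fits without knockout replicate 1 keep WT replicate 1, so in them the first kind of library is present in WT only. Knockout replicate 1 also kept the most Stk11. The log2 ratio of Stk11 was -1.58 in replicate 1, and its log2 fold change was -2.38 in replicates 2 and 3. The edgeR test of the difference between these effects did not pass (unadjusted p = 0.0189, adjusted p = 0.164). For knockout replicate 1, library kind and remaining Stk11 cannot be told apart. Hepatocyte markers were abundant in every library, and 5 of 5 muscle markers and 4 of 5 adipocyte markers stayed under 1 CPM, with Mb and Lep at 0 in all 6.

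Between knockout and WT, 0 of the 8 genes passed an adjusted p-value of 0.05, against 3.37% of the 14539 genes tested (edgeR's quasi-likelihood test), of which 2.15% were called higher and 1.22% lower in knockout. With library size alone as the scaling, that split moved from 313 higher and 177 lower to 380 and 131, and 0 of the 8 were called. An unadjusted p-value under 0.05 was likewise reached by 0 of the 8, against 26.3% of all genes, and DESeq2 and limma voom also called 0. The log2 fold changes ran from -0.58 for Bdh1 to 0.49 for Cpt1a, with a median of -0.08 beside 0.01 for all genes. Also tested was whether the group difference itself differed between replicate 1 and replicates 2 and 3: 0 of the 8 passed, against 2.90% of all genes, and 2 (Cpt1a and Bdh1) had an unadjusted p-value under 0.05, against 20.9%. For 2 of the 8, Hadha and Bdh1, the difference had opposite signs in replicate 1 and in replicates 2 and 3, as for 23.3% of all genes.

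The 8 genes together took 0.217% to 0.285% of the counts in knockout and 0.212% to 0.246% in WT. Their summed CPM was 2746, 1995 and 2336 in knockout and 2413, 2402 and 2162 in WT, groups that overlap (two-sided exact permutation test, p = 1; the smallest p that 3 against 3 allows is 0.1). A missed threshold does not show that a gene did not change, so 95% intervals are given with the fold changes of the 8 genes.

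**Figure D1:**
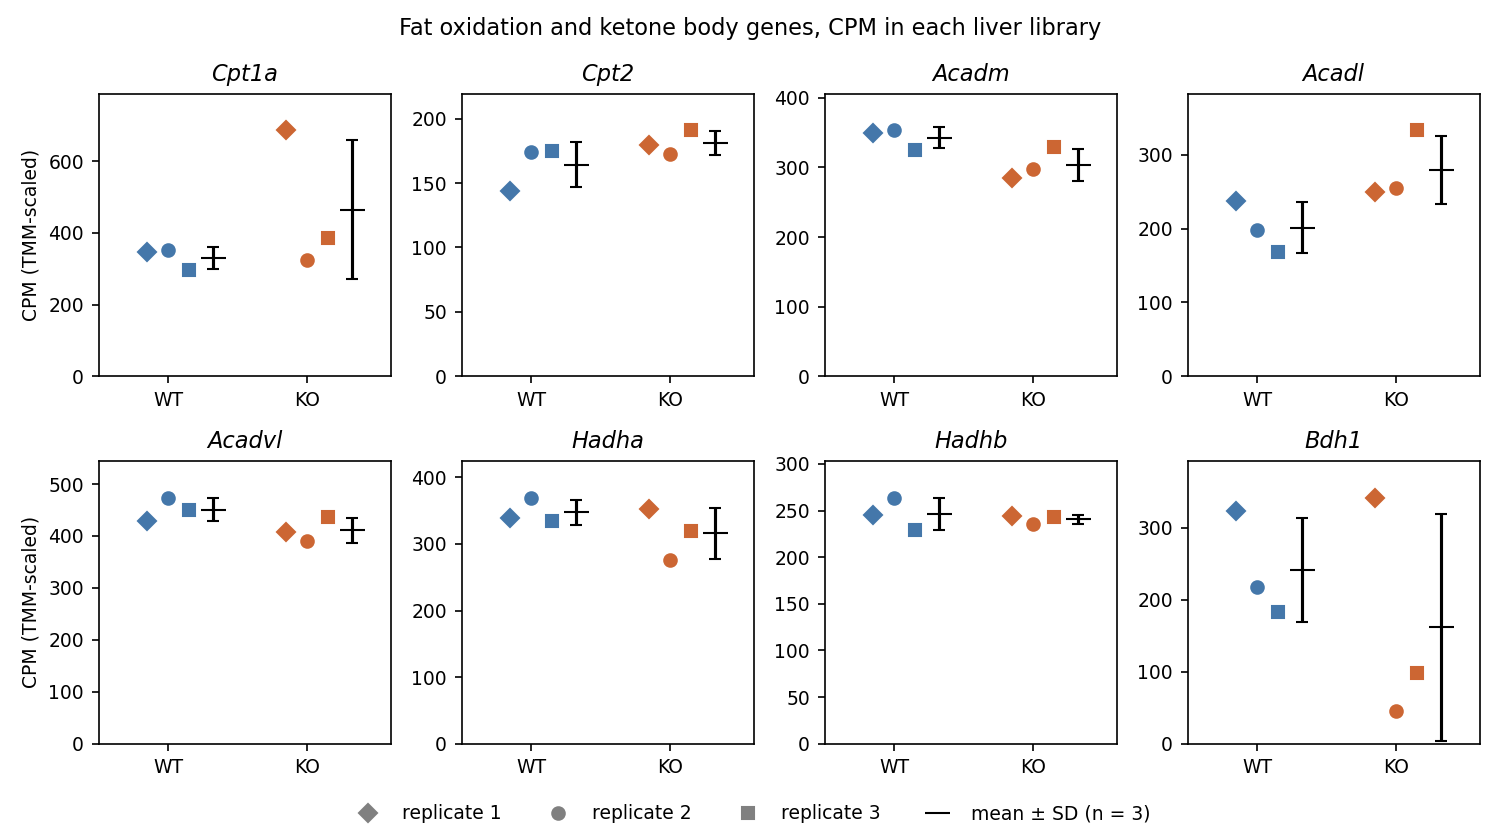
Normalised counts (CPM, linear axis from 0) of the 8 genes in each of 3 WT and 3 knockout (KO) libraries, with the mean ± SD beside the points and a symbol for each replicate number. The values of Cpt2, Acadm, Acadvl, Hadha and Hadhb lie close together, Cpt1a has 1 high knockout library at 686 CPM, Acadl lies higher in knockout, and Bdh1 spreads from 45.0 to 342 CPM within knockout.

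Carnitine entry is represented by Cpt1a and Cpt2. Cpt1a (ENSMUSG00000024900.5, GRCm38 chromosome 19, 3322334 to 3385733, plus strand), the malonyl-CoA-sensitive entry enzyme, was at 686, 323 and 386 CPM in knockout replicates 1 to 3 and at 345, 352 and 295 CPM in WT. Knockout replicate 1 stood far above the other 5 libraries, and knockout replicate 2 lay within the WT range. The means were 465 ± 194 and 331 ± 31.1 CPM (SD, n = 3 each), a log2 fold change of 0.49 with a 95% interval from -0.22 to 1.20 (adjusted p = 0.335). The estimate rested on that library: it was 0.09 without knockout replicate 1 (adjusted p = 0.672), 0.13 in replicates 2 and 3 alone and 0.99 in the replicate 1 pair. The test of whether that difference itself differed between replicate 1 and the others gave 0.86 on the log2 scale (unadjusted p = 0.0366, adjusted p = 0.21).

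Cpt2 (ENSMUSG00000028607.16, chromosome 4, 107903981 to 107923610, minus strand), the inner-membrane partner, was at 180, 173 and 191 CPM in knockout and at 144, 174 and 175 CPM in WT. The groups overlapped, and WT replicate 1 was the lowest library. The log2 fold change was 0.14, with an interval from -0.21 to 0.48 (adjusted p = 0.57), so that the upper bound is a 1.40-fold rise.

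In the rest of the carnitine system the log2 fold changes ran from -1.67 to 0.52, and differences between its genes were not tested. Of the 5 tested genes in a list of 6, 0 passed the threshold in edgeR and 2 were lower in knockout with an unadjusted p-value under 0.05 (11.7% of all genes). Slc25a20, the carnitine-acylcarnitine carrier that works between CPT1A and CPT2, was at 96.1, 70.5 and 73.1 CPM in knockout and at 101, 128 and 119 CPM in WT. The groups did not overlap, knockout being lower, as for 15.5% of all genes. The log2 fold change was -0.54 (interval -0.94 to -0.13, adjusted p = 0.116). In replicates 2 and 3 alone Slc25a20 fell by 0.78 on the log2 scale (adjusted p = 0.00626), in a fit that called 16.1% of all genes lower. The replicate 1 ratio was -0.07. Crot, the peroxisomal carnitine octanoyltransferase, had 673, 166 and 224 CPM in knockout, all below the WT range of 1053 to 1226 CPM. The fold change over 6 libraries, -1.67 on the log2 scale (interval -2.90 to -0.44), did not pass (adjusted p = 0.109). Crot did pass without knockout replicate 1 (adjusted p = 0.00136), in a fit that called 14.2% of all genes lower. Cpt1b, the muscle form of the entry enzyme, was at most 3.98 CPM in any library.

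The promoter sequence of Cpt1a is shown because its fold change rested on 1 high knockout library. The stretch is the exon-free part of the 250 bases before the transcript start listed by RefSeq (build GRCm38.p6), at chr19:3323051-3323284, plus strand, 5′ to 3′. It follows an upstream exon of a longer annotated Cpt1a transcript and so lies within the range given above. Capitals mark matches on either strand to AGGTCA, the half-site of many nuclear receptors, and to GGGCGG, the GC box.
Cpt1a upstream: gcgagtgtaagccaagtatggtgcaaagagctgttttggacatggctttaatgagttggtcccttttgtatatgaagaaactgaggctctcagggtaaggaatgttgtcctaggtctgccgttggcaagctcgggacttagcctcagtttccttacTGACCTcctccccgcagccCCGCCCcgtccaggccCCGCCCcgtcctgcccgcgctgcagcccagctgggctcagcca

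The first step of each oxidation round is covered by 3 dehydrogenases. Acadvl (ENSMUSG00000018574.14, chromosome 11, 70010183 to 70015411, minus strand), for very long chains, was at 407, 390 and 437 CPM in knockout and at 429, 473 and 451 CPM in WT. The groups overlapped, with a log2 fold change of -0.13 (interval -0.49 to 0.23, adjusted p = 0.603). Exons of Acadvl and of Dvl2 on the other strand overlap, and Dvl2 had 122 to 162 counts per library against at least 20580 for Acadvl. Acadm (ENSMUSG00000062908.12, chromosome 3, 153922357 to 153944632, minus strand), for medium chains, was at 285, 298 and 330 CPM in knockout and at 350, 353 and 325 CPM in WT. Only knockout replicate 3 and WT replicate 3 overlapped, and the log2 fold change was -0.17 (interval -0.52 to 0.18, adjusted p = 0.491).

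Acadl (ENSMUSG00000026003.5, chromosome 1, 66830839 to 66863277, minus strand), for long chains, went the other way. It was at 250, 256 and 333 CPM in knockout and at 238, 198 and 168 CPM in WT, so every knockout library lay above every WT library, although knockout replicate 1 and WT replicate 1 were close. It was the only one of the 8 genes whose groups did not overlap, a separation found for 32.4% of all genes tested and, with knockout higher, for 16.9%. The means were 280 ± 46.6 and 202 ± 34.8 CPM (SD, n = 3), a log2 fold change of 0.47 with an interval from -0.0009 to 0.95 (unadjusted p = 0.0503, adjusted p = 0.191). In replicates 2 and 3 alone Acadl rose by 0.68 on the log2 scale (interval 0.21 to 1.14, adjusted p = 0.0416), in a fit that called 33.3% of all genes and 17.2% as higher. The replicate 1 ratio was 0.07, and the difference between these effects was not past the threshold (adjusted p = 0.348).

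These dehydrogenases pass their electrons to the electron transfer flavoprotein. Of its 4 listed genes, all tested, 0 passed in edgeR and 2 were higher in knockout with an unadjusted p-value under 0.05 (14.6% of all genes). Etfa, the alpha subunit, was at 402, 484 and 573 CPM in knockout and at 345, 350 and 305 CPM in WT, without overlap (log2 fold change 0.55, interval 0.10 to 0.99, adjusted p = 0.132). Such a separation, with knockout higher, was found for 16.9% of all genes. Etfb, the beta subunit, ranged from 292 to 363 CPM in knockout, above the WT range of 240 to 248 CPM (0.37, interval 0.0041 to 0.74, adjusted p = 0.187). Etfbkmt, a methyltransferase that acts on ETFB, had overlapping groups and a log2 fold change of 0.63 (adjusted p = 0.394). WT replicate 1 was low, at 13.8 CPM against 41.4 and 48.6 CPM in WT replicates 2 and 3, and the estimate was 0.24 without it.

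Hadha and Hadhb, the subunits of the trifunctional protein, lie head to head on chromosome 5. Hadha (ENSMUSG00000025745.12, 30118304 to 30155162, minus strand) carries the hydratase and the long-chain hydroxyacyl-CoA dehydrogenase activities, and Hadhb (ENSMUSG00000059447.13, 30155248 to 30184593, plus strand) carries the thiolase. Their ranges in the GENCODE annotation are separated by 85 bases, and the stretch between them is shown for that reason. RefSeq's promoter table lists a start for Hadha inside its annotated range, not at the border of this stretch. The stretch lies at chr5:30155163-30155247 (GRCm38.p6, RefSeq promoter table), on the plus strand, which reads 5′ to 3′ toward Hadhb. Capitals mark GGGCGG.
Hadha-Hadhb interval: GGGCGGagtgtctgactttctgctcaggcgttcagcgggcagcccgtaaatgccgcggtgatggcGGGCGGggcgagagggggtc

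Hadha was at 353, 276 and 319 CPM in knockout and at 339, 369 and 334 CPM in WT. Knockout replicate 1 lay inside the WT range and the other knockout libraries lay below it, with a log2 fold change of -0.14 (interval -0.52 to 0.24, adjusted p = 0.613). Hadhb was at 245, 235 and 243 CPM in knockout and at 246, 264 and 230 CPM in WT, with every knockout value inside the WT range. Its log2 fold change was the smallest of the 8 genes, -0.03, with an interval from -0.36 to 0.30 (adjusted p = 0.901), and its sign changed to 0.01 when library size alone was used for scaling. The interval of Hadhb corresponds to a change between 0.779-fold and 1.23-fold. Reads of Hadhb can be divided with near copies: the processed pseudogene Gm13910 is 99.8% identical over 1428 nt and was assigned 217 to 340 counts per library, against 10733 to 14259 for Hadhb. Per kilobase of their principal transcripts, the ratio of Hadha to Hadhb was 0.735, 0.598 and 0.67 in knockout and 0.705, 0.714 and 0.742 in WT. The ratio varied more in knockout (0.667 ± 0.0686) than in WT (0.72 ± 0.0194; SD, n = 3), and the groups overlapped (two-sided exact permutation test, p = 0.3).

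Of 14 other genes of mitochondrial beta-oxidation, 0 passed the threshold in edgeR, with an unadjusted p-value under 0.05 for 1 that was higher and 2 that were lower (14.6% and 11.7% of all genes) and a median log2 fold change of 0.02. Acaa2, the thiolase for medium and short chains, had 765, 354 and 579 CPM in knockout, against 785 to 888 CPM in WT. All knockout libraries were lower, replicate 1 by little, with a log2 fold change of -0.57 (interval -1.25 to 0.12, adjusted p = 0.259). Eci1 and Eci2, enoyl-CoA isomerases needed for unsaturated chains, had log2 fold changes of -0.54 (adjusted p = 0.11) and -0.98 (adjusted p = 0.0788). Both were without overlap between groups, as were 15.5% of all genes with knockout lower. Acot13, a thioesterase, ranged from 39.8 to 55.1 CPM in knockout, above the WT range of 26.2 to 38.5 CPM (0.54, adjusted p = 0.148).

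Bdh1 (ENSMUSG00000046598.15, chromosome 16, 31422280 to 31458901, plus strand), the beta-hydroxybutyrate dehydrogenase, was the most variable of the 8 genes. It was at 342, 45.0 and 98.3 CPM in knockout and at 323, 218 and 184 CPM in WT. Replicate 1 was the highest library of both groups, and knockout replicates 2 and 3 lay far below all others, so the values within knockout spanned 7.60-fold. The means were 162 ± 158 and 242 ± 72.5 CPM (SD, n = 3), and the log2 fold change of -0.58 had an interval from -2.20 to 1.04 (adjusted p = 0.617). Without knockout replicate 1, Bdh1 fell by 1.76 on the log2 scale (SE 0.405, adjusted p = 0.0236), in a fit that called 30.2% of all genes and 14.2% as lower. In replicates 2 and 3 alone it fell by 1.49 (interval -2.41 to -0.58, adjusted p = 0.0298), where 16.1% of all genes were called lower. The replicate 1 ratio was 0.08, and the test of the difference between these effects gave 1.57 on the log2 scale (unadjusted p = 0.0494, adjusted p = 0.239). An antisense gene, Gm15743, overlaps Bdh1 and had at most 10 counts.

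Knockout replicates 2 and 3 also had the lowest summed hepatocyte markers (Alb, Apoa1, Ttr, Serpina1a, Cps1 and Tat). The sums of knockout replicates 1 to 3 were 69709, 26114 and 43599 CPM, and those of WT ran from 76818 to 116984 CPM. The ranking of the sums was set largely by Alb, the most abundant of the 6 genes in every library. Alb was at 10394.5 CPM in knockout replicate 2 and at 17534.3 CPM in knockout replicate 3. The 6 genes did not move together. Alb, Apoa1 and Ttr were lower in knockout without overlap, and Serpina1a overlapped. Cps1 and Tat were higher without overlap, of which Tat alone passed (adjusted p = 0.0344). Over all genes, knockout was lower without overlap for 15.5% and higher without overlap for 16.9%. For Serpina1a, Cps1 and Tat, knockout replicate 3 was the highest of all 6 libraries. The 6 endothelial markers had sums of 67.2 to 112 CPM in knockout against 135 to 185 CPM in WT, and the 5 red cell genes sums of 42.0 to 255 CPM against 188 to 432 CPM, with 0 of either list called (edgeR; 0 also at 0 CPM). Mitochondrially encoded genes took 7.69% to 10.2% of counts in knockout and 6.14% to 6.95% in WT. The part of these in the values of the 8 genes was not tested. In whole-tissue RNA, fewer cells of a type and less RNA per cell cannot be told apart.

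The upstream stretch of Bdh1, from the first of the starts that RefSeq lists, is shown beside that of Cpt1a, since knockout replicate 1 was the highest knockout library for both. It lies at chr16:31422047-31422279, plus strand (GRCm38.p6), and holds none of the motifs searched, so no letter is in capitals.
Bdh1 upstream: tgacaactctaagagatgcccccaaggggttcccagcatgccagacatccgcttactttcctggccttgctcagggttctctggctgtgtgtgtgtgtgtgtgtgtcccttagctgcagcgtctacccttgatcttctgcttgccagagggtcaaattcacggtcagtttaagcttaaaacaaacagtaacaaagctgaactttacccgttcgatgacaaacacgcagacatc

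Motifs were searched on both strands in the 250 bases before each listed start, in 32851 RefSeq promoters. AGGTCA was found for 3 of the 8 genes (Cpt1a, Acadm and Acadvl) and in 14% of all promoters, GGGCGG for 5 (Cpt1a, Cpt2, Acadl, Hadha and Hadhb) and in 32.7%, TGACG for Acadm and in 17.8%, and CCAAT for Cpt1a and in 33.8%. The GGGCGG match of Hadha and the first match of Hadhb are the same bases, at the start of the interval printed above, and are counted for both genes. The CCAAT match of Cpt1a runs past the end of the printed stretch into exon bases and is not marked there. TGACGTCA, the ERR element TCAAGGTCA and TATAAA were found for 0 of the 8, and in 1.55%, 0.387% and 12.4% of all promoters. TGACG is contained in TGACGTCA, and AGGTCA in TCAAGGTCA. These are matches of letters in 1 window and not binding sites.

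**Figure D2:**
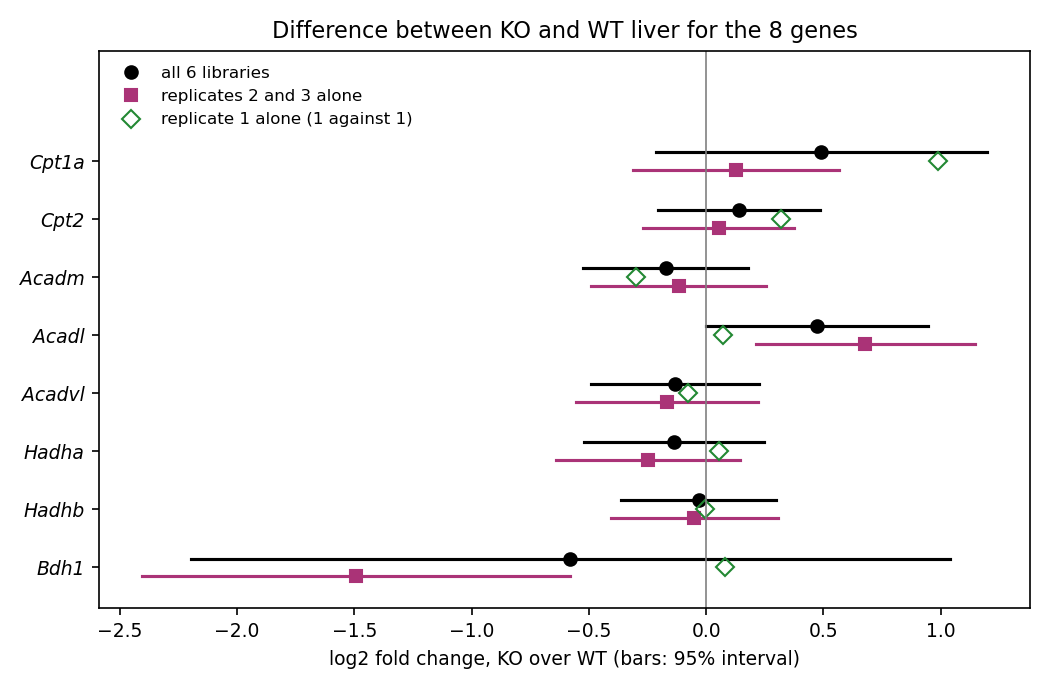
Log2 fold change of knockout over WT for each of the 8 genes, from all 6 libraries (black circles) and from replicates 2 and 3 alone (purple squares), with 95% intervals, and the single ratio of replicate 1 (open diamonds). All 8 black intervals reach 0, the lower bound of Acadl only just, and the purple intervals of Acadl and Bdh1 do not.

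The other ketone body genes stood beside Bdh1 as follows. Of 9 listed and tested, 1 rose past the threshold and 0 fell in edgeR, and 2 had an unadjusted p-value under 0.05 with lower values in knockout. Over all genes, 2.15% were called higher, 1.22% were called lower and 11.7% were lower with an unadjusted p-value under 0.05. In replicates 2 and 3 alone, 1 of the 9 was called higher and 3 lower, against 17.2% and 16.1% of all genes, and the median log2 fold change of the list was -0.28 over 6 libraries and -0.58 in replicates 2 and 3.

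Slc16a6, a monocarboxylate transporter, was the called gene of this list. It rose from 6.17, 5.61 and 7.70 CPM in WT to 14.6, 17.1 and 11.2 CPM in knockout, a log2 fold change of 1.14 (interval 0.65 to 1.63, adjusted p = 0.0413), and its replicate 1 ratio of 1.24 was close to the 1.09 of replicates 2 and 3. The call was lost when any 1 library other than knockout replicate 1 was left out, with adjusted p-values from 0.0943 to 0.209, and with library size alone as the scaling (adjusted p = 0.052). Aacs, the cytosolic enzyme that activates acetoacetate for lipid synthesis, had 22.8, 6.48 and 5.24 CPM in knockout, against 32.9 to 60.6 CPM in WT (-1.90, interval -3.29 to -0.50, adjusted p = 0.108).

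Peroxisomes shorten very long and branched chains by a separate set of enzymes. Of 15 such genes, 0 were called in edgeR over 6 libraries, and 8 had lower values in knockout with an unadjusted p-value under 0.05, as had 11.7% of all genes. The same number, 8, had all knockout libraries below all WT libraries, against 15.5% of all genes, and the median log2 fold change was -0.66. Ehhadh, the bifunctional enzyme, was at 312, 239 and 292 CPM in knockout and at 561, 554 and 459 CPM in WT (-0.90, interval -1.33 to -0.47, adjusted p = 0.0505), and was lower by a similar amount in the replicate 1 pair (-0.85) and in replicates 2 and 3 (-0.94). Pex11a, which acts in peroxisome division, had a log2 fold change of -1.31 (adjusted p = 0.0526). Ehhadh and Pex11a, both just short of the threshold, passed it in DESeq2, and without knockout replicate 1, 9 of the 15 genes were called lower and 1 higher, where 14.2% of all genes were called lower and 16.0% higher. The difference between this list and the 8 mitochondrial genes was not tested.

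**Figure D3:**
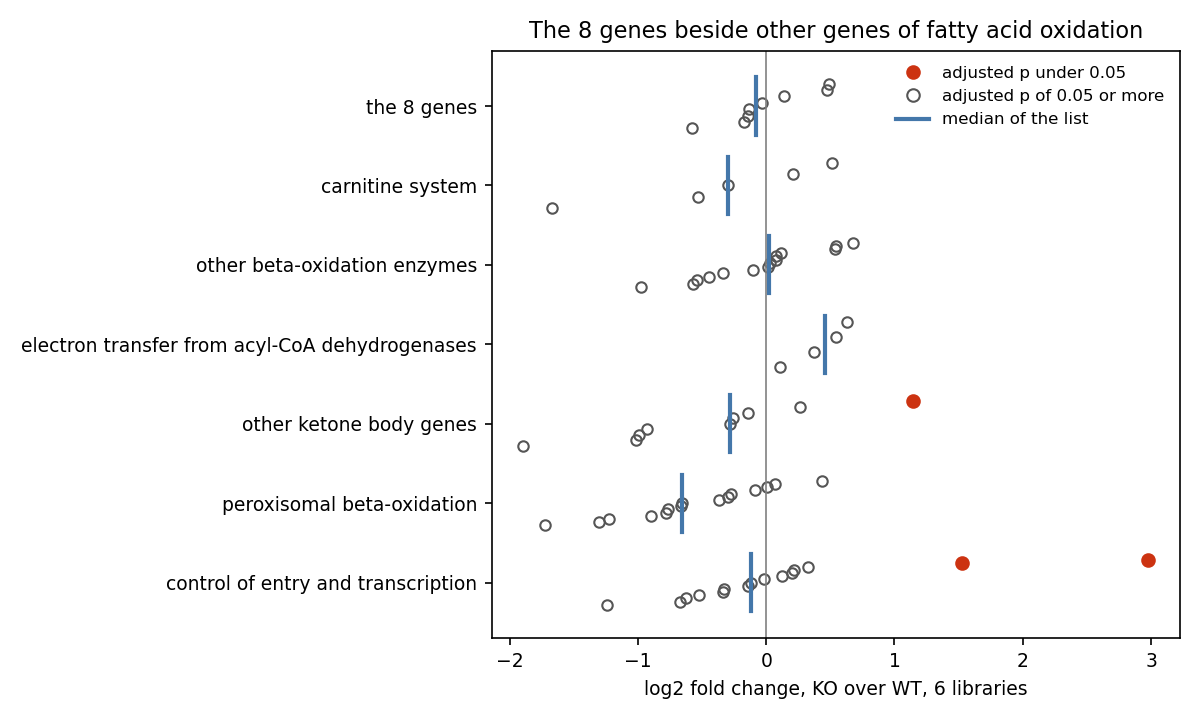
Log2 fold changes over 6 libraries of the 8 genes and of 6 lists of other genes of the pathway, 1 point per tested gene, filled red where the adjusted p-value was under 0.05, with the median of each list as a blue bar. The 8 genes lie between -0.58 and 0.49, the peroxisomal genes have the lowest median (-0.66) and the electron transfer genes the highest (0.46), and the 3 called genes are all higher in knockout.

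Among 15 genes that control fatty acid entry or the transcription of the pathway, 2 rose past the threshold and 0 fell in edgeR, against 2.15% and 1.22% of all genes. Ppargc1a, which encodes the coactivator PGC-1alpha, rose from 12.3, 5.75 and 4.28 CPM in WT to 24.7, 75.2 and 76.4 CPM in knockout (log2 fold change 2.98, interval 1.64 to 4.32, adjusted p = 0.0446). Esrra, the nuclear receptor ERRalpha with which it acts, rose from 14.3 to 17.4 CPM in WT to 27.0, 64.2 and 48.3 CPM in knockout (1.53, interval 0.81 to 2.24, adjusted p = 0.048). Leaving out knockout replicate 2 or 3 or WT replicate 2 or 3 ended both calls, with adjusted p-values up to 0.211, and leaving out WT replicate 1 ended that of Esrra (adjusted p = 0.114), as did limma voom over all 6 libraries (adjusted p = 0.0577). Ppara, the nuclear receptor that fatty acids activate, had 65.1, 19.3 and 30.5 CPM in knockout, against 78.3 to 98.5 CPM in WT. All knockout libraries were lower (-1.24, interval -2.23 to -0.25, adjusted p = 0.125). Ppara passed without knockout replicate 1 (adjusted p = 0.00399), in a fit that called 14.2% of all genes lower. Its partner Rxra had a log2 fold change of -0.53 (adjusted p = 0.183) and the corepressor gene Ncor1 one of -0.33 (adjusted p = 0.205). Both were without overlap between the groups, as were 15.5% of all genes with knockout lower.

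**Figure D4:**
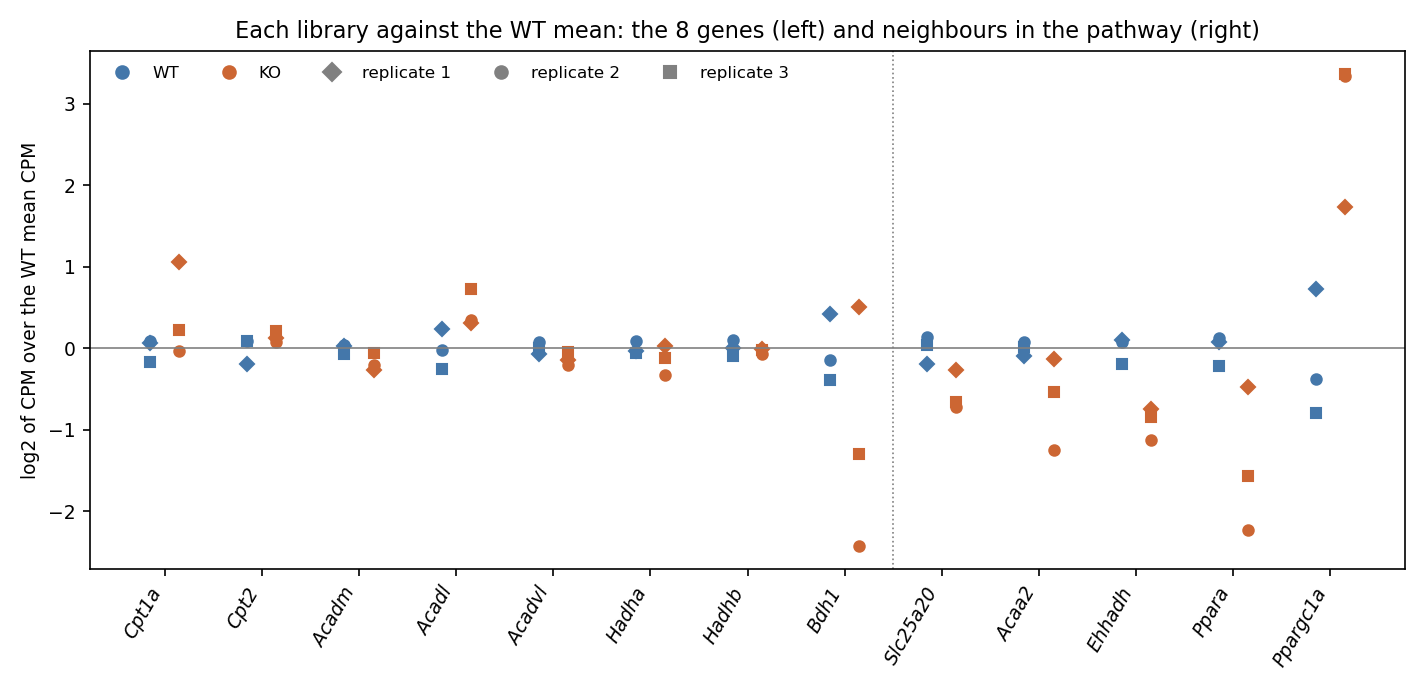
Log2 of each library's CPM over the WT mean, for the 8 genes (left of the dotted line) and 5 other genes of the pathway (right), with WT in blue, knockout in orange and a symbol for each replicate number. Cpt2, Acadm, Acadvl, Hadha and Hadhb stay near 0 in every library. For Bdh1 and all 5 genes on the right, the knockout diamond (replicate 1) lies nearer the WT points than the knockout circle and square do. For Ehhadh this is by little.

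Levels can be compared between genes only per length. Per kilobase of the principal transcript, Acadvl was highest in all 6 libraries, at 180 to 218 CPM per kilobase. Acadm followed at 139 to 173, and overlapped Acadl at 87.9 to 174, whose range over the libraries also spanned that of Hadhb at 112 to 129. Cpt1a (68.4 to 159), Hadha (68.7 to 91.9) and Cpt2 (60.7 to 80.5) overlapped one another, and Bdh1 had both the lowest value, 14.4 in knockout replicate 2, and one of 109 in knockout replicate 1. In WT the mean of Bdh1, 77.3 ± 23.2, differed from that of Cpt1a, 76.6 ± 7.19, by less than their spread (SD, n = 3). The order depends on the length used: with the union of all annotated exons, chosen after the data were seen, Hadhb moved from place 4 to place 8, and Acadvl stayed in place 1.

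The spread within a group also set the genes apart. Among 1384 genes with a mean of at least 100 CPM, the SD of log2 CPM within knockout was larger than that of Bdh1 in few genes, since 96.5% had a smaller one, and 78.6% had a smaller one than Cpt1a. For Hadhb, Cpt2, Acadvl and Acadm only 0.65%, 3.76%, 5.20% and 8.82% of genes had a smaller SD within knockout. Within WT, 90.9% of genes had a smaller SD than Bdh1 and 22.0% a smaller one than Acadm. These shares describe 3 libraries each and are not tests.

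Of the 28 ratios between pairs of the 8 genes, 10 did not overlap between knockout and WT, or 35.7%, where 53.3% of all ratios between genes with a mean of at least 100 CPM did not overlap. Each of the 10 had the smallest exact permutation p possible, 0.1, and 0.28 after adjustment over the 28 pairs, so 0 passed. Taken per kilobase, Acadm per Acadl was 1.07, 1.09 and 0.925 in knockout and 1.38, 1.67 and 1.81 in WT, and Cpt2 per Acadvl was 0.404, 0.405 and 0.40 in knockout and 0.307, 0.336 and 0.355 in WT. Cpt1a entered 4 of the 10 ratios and Acadl another 4.

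Profiles over the 6 libraries were compared by the root mean square difference of log2 CPM values centred on each gene's mean, among genes with a mean of at least 10 CPM. The nearest gene to Cpt1a was Khk, the fructose-phosphorylating kinase, with 458, 242 and 345 CPM in knockout against 249 to 282 CPM in WT (difference 0.134). Acot13, a thioesterase listed above, was nearest to Acadl (0.0595), Cpq to Hadha (0.0281), Ppp1r21 to Hadhb (0.0234), Usf1 to Acadvl (0.022), Epc1 to Cpt2 (0.0288) and 2610002M06Rik to Acadm (0.0271). Bdh1 had no gene as near: Lect2, a secreted hepatocyte protein, was nearest at 0.222, with 72.1, 14.6 and 26.9 CPM in knockout and 109, 60.4 and 55.5 CPM in WT. The measure is not scaled by a gene's own spread, so variable genes such as Bdh1 tend to have larger differences than steady ones. Among the 8 genes themselves Acadm and Acadvl were the nearest pair (0.0695), and Hadha was nearer to Acadvl (0.0955) than to any other of the 8.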

How the data were processed

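The authors deposited 1 table of expected counts per gene for 55450 genes and 6 libraries, and per the submitters' processing notes bcl2fastq 2.17, cutadapt 1.18, STAR 2.7.0f and RSEM 1.3.1 were used. These notes name build mm9, whereas all 55450 versioned gene identifiers are found in GENCODE M21 (GRCm38), from which positions and lengths were taken. Use of strand is not given in the sources used here, so counts of overlapping genes are uncertain. Columns were matched to samples by their descriptions and groups were taken from titles, with 0 columns unmatched.

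Expected counts were rounded. Genes were kept by filterByExpr (14539 genes), scaled by TMM and compared with edgeR 4.0.16 (quasi-likelihood test, group only, R 4.3.3), with Benjamini-Hochberg adjustment over all genes and a threshold of 0.05. Fold-change intervals use the SE (size over the square root of F) and the t quantile at the test's total degrees of freedom. Log2 CPM used a prior count of 2. The interaction test added replicate 1 against replicates 2 and 3 as a term. DESeq2 1.42.0 and limma 3.58.1 were alternatives, and the scripts were tested on simulated data. The 8 genes, the 6 lists of 63 other pathway genes and the marker lists were chosen with earlier results of these data known. Named genes are the 8, Stk11, from each list every called gene and up to 3 more with the smallest p-values, and Slc25a20, Acaa2, Ppara and Ppargc1a, and some genes that this rule names are not reported here. Promoters are RefSeq's (GRCm38.p6), and all 8 genes matched.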

Additional observations from a re-analysis of the deposited data

Results flagged for a closer look

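The differences of Bdh1 had opposite signs in the 2 kinds of library. Its log2 ratio was only 0.08 in the replicate 1 pair, and its log2 fold change was -1.49 in replicates 2 and 3. The test of that difference gave 1.57 (edgeR, unadjusted p = 0.0494, adjusted p = 0.239). Hadha also had opposite signs, at 0.05 and -0.25 (interval of the latter -0.64 to 0.15), with a difference of 0.30 (adjusted p = 0.587). Such opposite signs were seen for 23.3% of all genes tested. Ppargc1a rose in both, by 1.00 and 3.91 on the log2 scale, and the difference of -2.91 passed (adjusted p = 0.0103), as it did for 2.90% of genes. The replicate 1 side is 1 library against 1.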

How the results depend on the processing

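Of the 112 alternative values of the 8 genes' log2 fold changes, 107 kept their direction and stayed short of the threshold. Hadhb reversed to 0.01 with library size alone and to 0.02 without WT replicate 2 (from -0.08 to 0.02 when 1 library was left out), Bdh1 passed without knockout replicate 1, and Acadl and Bdh1 passed in replicates 2 and 3 alone. The count of called members was 2 there and 0 to 1 when 1 library was left out. Of the other pathway genes, 3 were called over 6 libraries, 3 higher and 0 lower in knockout. DESeq2 called 17 (4 higher, 13 lower), and the fit with the library state as a term called 10 (4 higher, 6 lower). Without a filter on low counts 6 were called (3 higher, 3 lower), and in replicates 2 and 3 alone 28 (6 higher, 22 lower). When 1 library was left out, 0 to 28 were called. Over all genes 490 were called, and 2290, 1504, 771 and 4847 under the same 4 settings, and 6 to 4473 with 1 library left out (4473 without knockout replicate 1, 6 without WT replicate 2). Library size alone called 380 higher and 131 lower, against 313 and 177. The causes of these differences were not tested.

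With the replicate number as a replicate block, 105 genes, 0 other pathway genes and 0 of the 8 were called. The numbers were not taken as pairs, because they name different animals and no label pairs them. Same-numbered libraries deviated from their group means with correlations of 0.178, 0.0443 and 0.0679. Knockout 2 and 3 each correlated better with another WT number. With 3 libraries per group, intervals of the 8 genes reached from 0.33 to 1.62 log2 units on either side. These widths are not a limit of detection, because calls used p-values adjusted over all genes. A change larger than the width of its own interval on either side could also stay uncalled. Slc25a20 was such a gene, at -0.54 with an interval from -0.94 to -0.13 (edgeR, adjusted p = 0.116).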
